A study of Mus musculus with 12 samples.

Results

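The nucleic acid sensors described here were 8 genes chosen by symbol among the 15002 genes listed for IEC4.1, an epithelial line from newborn mouse intestine. They were Ddx58, Ifih1 and Dhx58, the RIG-I-like receptors RIG-I, MDA5 and LGP2; Mavs, their adaptor; Tlr3, an endosomal receptor; Eif2ak2, the kinase PKR; Zbp1; and Ifi204, also called p204. Each of the 8 was listed in every library, and 8 of 8 were among the 11900 genes tested. The cells, wild type by label, were sequenced in 4 conditions with 3 libraries each. The siR_Ctrl cells had received a scrambled siRNA and the siR_Nostrill cells a pool of 3 siRNAs that target Nostrill, a long noncoding RNA. The scrambled siRNA and the pool as a whole were given at 120 nM for 24 h with a lipid reagent. Cells of each kind were left without IFN-γ or were given it, by the study's methods at 1 ng/ml for 4 h, whereas the labels give 24 h for every library. All 4 conditions therefore carried transfected double-stranded RNA, and no untransfected or reagent-only cells were among them. The level of a sensor can be compared between the control and the Nostrill siRNAs, but not between transfected and untransfected cells.

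Cells detect foreign nucleic acid by where it lies and how it is shaped. RIG-I and MDA5 bind double-stranded RNA in the cytosol and signal through MAVS on mitochondria to the kinase TBK1 and the factors IRF3 and IRF7, which switch on type I and type III interferons, while LGP2 lacks the signalling domains and modulates both. TLR3 reads double-stranded RNA inside endosomes through the adaptor TRIF, PKR phosphorylates eIF2α and halts translation, ZBP1 binds Z-form RNA and DNA and recruits RIPK3, and p204 is a DNA-binding PYHIN protein linked to STING. Many of these sensors are themselves interferon-stimulated genes (ISGs), so that their mRNA can rise without a ligand.

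The duplexes given to the siR_Nostrill cells are shown because they are the double-stranded RNA transfected into these cells, with sense strands from the study's methods and antisense strands given 5′ to 3′. Capitals mark a UGUGU repeat, a GU-rich pattern of the kind known to engage endosomal receptors of single-stranded RNA.
the first siRNA, sense: ccugggaagaagcauuaau
the first siRNA, antisense: auuaaugcuucuucccagg
the second siRNA, sense: ccaccaggaacacacaaau
the second siRNA, antisense: auuUGUGUGUuccuggugg
the third siRNA, sense: gccuauaagucguucuaau
the third siRNA, antisense: auuagaacgacuuauaggc
Each strand had 19 bases. The antisense strand of the second siRNA was 84.2% G and U and held 2 overlapping UGUGU copies from position 4, and the other 5 strands held none. The scrambled siRNA sequence is not given in the sources used, so that the same features could not be set beside it. Over their full 19 bases the first and second siRNA matched 1 and 2 of 141767 GENCODE vM21 transcripts, all of 2500002B13Rik, the lncRNA gene at chr8:57487963-57510262 (GRCm38.p6), and the third matched 0. None of the 43 transcripts of the 8 sensor genes held a full match to any of the 3. Nostrill was not analysed here, since the tables list mRNA only, and the knockdown was not used to check the labels.

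From 17824306 to 19093204 reads fell on genes in a library. Within a condition the libraries differed in how counts followed gene length, with a Spearman correlation between a library's deviation from its condition mean and gene length from -0.765 to 0.797 across the 12 libraries. Of the epithelial markers, Epcam, Cdh1, Cldn3, Cldn4 and Cldn7 were not analysed here, while Krt8, Krt18, Vil1 and Cdx2 stayed at or below 0.28 FPKM in each library and Lgals4 at or below 0.46 FPKM. Krt19 had from 0.91 to 2.76 FPKM, and the 6 listed epithelial markers summed to between 1.32 and 3.17 FPKM. Vim, Col1a1 and the other 6 mesenchymal markers summed to between 2002 and 2550 FPKM, the 6 listed immune markers to between 1.37 and 2.65 FPKM, and the endothelial pair to 0.18 or less. Of the immune markers, Cd68 had from 0.91 to 2.07 FPKM and Ptprc, the common leukocyte marker, at most 0.01. The epithelial and the immune sums were thus alike and low, and the labelled cell type was not borne out by the epithelial markers measured.

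Levels between genes were compared in FPKM, which accounts for transcript length. In siR_Ctrl cells Ifi204 was highest at 31.6 ± 2.26 FPKM (SD, n = 3), followed by Mavs at 14.3 ± 1.03 FPKM and Eif2ak2 at 13.7 ± 2.37 FPKM, whose libraries overlapped. Ddx58 followed at 8.12 ± 1.86 FPKM. Dhx58, Zbp1, Ifih1 and Tlr3 made up the low end, at means of 1.56, 1.19, 0.82 and 0.617 FPKM, and each overlapped the next in that order. The cells at rest thus held the adaptor, PKR, RIG-I and p204 mRNA at clearly higher levels than those of MDA5, LGP2, ZBP1 and TLR3. With IFN-γ the order in siR_Ctrl cells became Ifi204 at 124, Eif2ak2 at 38.0, Zbp1 at 36.3, Ddx58 at 18.7, Mavs at 13.0, Dhx58 at 4.43, Tlr3 at 3.16 and Ifih1 at 2.64 FPKM. In that order Eif2ak2 overlapped Zbp1 and Tlr3 overlapped Ifih1. Mavs went from the second place to the fifth while its own level was 13.0 ± 1.28 FPKM, and Zbp1 moved from the sixth place to the third.

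**Figure D1:**
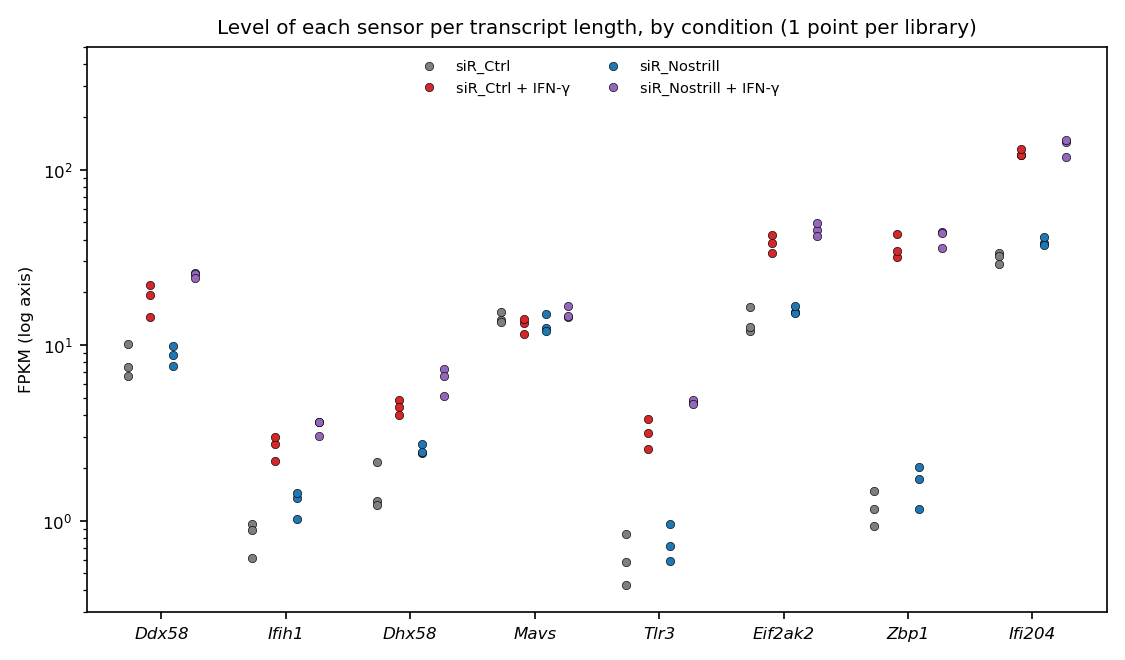
FPKM of each sensor on a log axis, with 1 point per library and colours for the 4 conditions. Ifi204 has the highest points in each condition, and Zbp1 moves from a mean of 1.19 FPKM in siR_Ctrl cells to 36.3 FPKM with IFN-γ, while the points of Mavs stay close together.

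The first question was whether IFN-γ changed the sensors. In siR_Ctrl cells 7 of the 8 were called higher with IFN-γ by the quasi-likelihood test of edgeR (p adjusted over all genes by Benjamini-Hochberg), where 4.71% of the genes tested were called higher, and none was called lower. The median log2 fold change of the 8 was 1.66, against -0.01 over all genes tested. In siR_Nostrill cells the same 7 genes were called higher, against 5.24% of the genes tested, with a median of 1.497 against 0.00. Mavs was the member not called in either. The 7 called had every IFN-γ library above every library without it in CPM, within each siRNA. So had 1139 of the 11900 genes tested in siR_Ctrl and 2198 in siR_Nostrill cells. In RNA of whole cultures, a change in the number of responding cells and a change in RNA per cell cannot be told apart. Adjusted p-values below are from that edgeR test. The values per library are normalised read counts in CPM, reads scaled to a common library size, always in the order of replicates 1 to 3, which carry no order of their own.

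Ddx58 (gene 230073, chr4:40203777-40239825) encodes RIG-I, which recognises short double-stranded RNA with triphosphate or diphosphate ends. It had 45.7, 32.2 and 34.3 CPM in siR_Ctrl libraries and 91.9, 76.0 and 102 CPM with IFN-γ. In siR_Nostrill libraries it had 42.0, 36.7 and 44.6 CPM, and 119, 118 and 114 CPM with IFN-γ. Each IFN-γ library lay above each library without it, and without IFN-γ both siRNAs overlapped. The rise was 2.40-fold in siR_Ctrl cells (log2 fold change 1.27, SE 0.14, adjusted p = 0.000143) and 2.84-fold in siR_Nostrill cells (1.51, SE 0.14, adjusted p = 3.33e-05). Ddx58 is longer than 81.3% of the genes, and replicate 1 of siR_Ctrl, its highest library at rest, was also the one whose counts leaned most towards long genes (Spearman 0.797). The part of length in that value was addressed only by the fit that removes the length trend, given with the siRNA comparison.

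Ifih1 (gene 71586, chr2:62595618-62646255) encodes MDA5, which recognises long double-stranded RNA. Its levels were low at rest, 4.84, 3.30 and 4.58 CPM in siR_Ctrl libraries, from 59 to 92 reads each, and 7.04, 5.40 and 7.21 CPM in siR_Nostrill libraries. With IFN-γ it reached 14.6, 12.5 and 15.6 CPM in siR_Ctrl and 15.5, 18.9 and 19.1 CPM in siR_Nostrill libraries. The conditions with and without IFN-γ did not overlap, and at rest the siR_Nostrill libraries were all above those of siR_Ctrl. The rise with IFN-γ was 3.35-fold in siR_Ctrl cells (log2 fold change 1.74, SE 0.17, adjusted p = 3.93e-05) and 2.72-fold in siR_Nostrill cells (1.44, SE 0.17, adjusted p = 0.000151).

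Dhx58 (gene 80861, chr11:100694884-100704271) encodes LGP2, the regulator of the other two receptors. It had 2.68, 2.74 and 4.58 CPM in siR_Ctrl libraries and 8.72, 11.8 and 9.44 CPM with IFN-γ. The siR_Nostrill libraries gave 5.39, 6.15 and 5.13 CPM, and 10.9, 15.6 and 14.7 CPM with IFN-γ. Dhx58 thus rose with IFN-γ in both without overlap, 2.99-fold in siR_Ctrl cells (log2 fold change 1.58, SE 0.22, adjusted p = 0.000781) and 2.47-fold in siR_Nostrill cells (1.30, SE 0.21, adjusted p = 0.00223). Of the 7 sensors called, it had the highest adjusted p in each.

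Mavs (gene 228607, chr2:131234063-131248025), the adaptor through which RIG-I and MDA5 signal, behaved apart from its receptors. It had 39.3, 37.9 and 35.7 CPM in siR_Ctrl libraries and 35.3, 33.4 and 36.8 CPM with IFN-γ. In siR_Nostrill libraries it had 33.0, 32.5 and 38.2 CPM, and 42.8, 37.5 and 39.0 CPM with IFN-γ. The ranges with and without IFN-γ overlapped for each siRNA. Its log2 fold change with IFN-γ was -0.10 (95% confidence interval -0.30 to 0.10, adjusted p = 0.699) in siR_Ctrl cells. In siR_Nostrill cells it was 0.20 (interval 0.0013 to 0.40, adjusted p = 0.225). These intervals leave room for a change of up to 1.32-fold, the upper bound in siR_Nostrill cells.

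Tlr3 (gene 142980, chr8:45395665-45411075) encodes the endosomal receptor of double-stranded RNA, the compartment that lipid-delivered siRNA passes through. It had the lowest FPKM of the 8 at rest, with 3.21, 2.35 and 1.69 CPM in siR_Ctrl and 2.95, 2.47 and 3.73 CPM in siR_Nostrill libraries, from 31 to 72 reads each. With IFN-γ it had 13.0, 11.5 and 15.2 CPM in siR_Ctrl and 18.8, 19.3 and 18.9 CPM in siR_Nostrill libraries. The siRNAs overlapped at rest, but with IFN-γ every siR_Nostrill library was above every siR_Ctrl library. Tlr3 rose 5.46-fold in siR_Ctrl cells (log2 fold change 2.45, SE 0.21, adjusted p = 1.07e-05) and 6.20-fold in siR_Nostrill cells (2.63, SE 0.20, adjusted p = 4.44e-06).

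Eif2ak2 (gene 19106, chr17:78850504-78882572) encodes PKR, a kinase activated by double-stranded RNA. It had 88.1, 75.2 and 75.6 CPM in siR_Ctrl libraries and 232, 229 and 245 CPM with IFN-γ. The siR_Nostrill libraries had 96.9, 96.7 and 95.7 CPM, and 264, 292 and 256 CPM with IFN-γ. In CPM the 4 conditions did not overlap, in the order siR_Ctrl, siR_Nostrill, siR_Ctrl with IFN-γ and siR_Nostrill with IFN-γ. In FPKM both siRNAs overlapped, from 11.97 to 16.41 and from 15.2 to 16.7 without IFN-γ and from 33.4 to 42.6 and from 41.9 to 49.6 with it. The rise with IFN-γ was 2.95-fold in siR_Ctrl cells (log2 fold change 1.56, SE 0.08, adjusted p = 1.73e-07) and 2.81-fold in siR_Nostrill cells (1.49, SE 0.08, adjusted p = 2.77e-07). Its deposited counts were whole in 0 of 12 libraries, as happens where reads shared with similar sequence are divided by estimate, and its level is uncertain by such reads.

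Zbp1 (gene 58203, chr2:173206612-173218959) encodes the sensor of Z-form nucleic acid that triggers necroptosis. Its counts were the lowest of the 8 at rest, with 0.893, 0.671 and 1.04 CPM in siR_Ctrl libraries, from 12 to 19 reads each, and 1.31, 1.78 and 1.45 CPM in siR_Nostrill libraries, from 23 to 31 reads. With IFN-γ it had 29.4, 39.8 and 28.8 CPM in siR_Ctrl and 30.8, 39.7 and 38.7 CPM in siR_Nostrill libraries. It had the largest fold change of the 8, 37.3-fold in siR_Ctrl cells (log2 fold change 5.22, SE 0.21, adjusted p = 1.3e-08) and 24.0-fold in siR_Nostrill cells (4.59, SE 0.20, adjusted p = 2.56e-08). The low counts at rest set the precision of both values, whose 95% intervals ran from 27.0 to 51.6-fold and from 17.8 to 32.5-fold.

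Ifi204 (gene 15951) encodes p204, a DNA sensor of the PYHIN family. RefSeq places it at chr1:173747293-173767069, while the deposited tables list it on an alternate scaffold. It had 65.1, 61.6 and 65.4 CPM in siR_Ctrl libraries and 251, 278 and 264 CPM with IFN-γ. In siR_Nostrill libraries it had 80.5, 87.6 and 73.2 CPM, and 238, 292 and 307 CPM with IFN-γ. The libraries with IFN-γ were far above those without, and with IFN-γ both siRNAs overlapped. The rise was 4.13-fold in siR_Ctrl cells (log2 fold change 2.05, SE 0.11, adjusted p = 1.28e-07) and 3.47-fold in siR_Nostrill cells (1.80, SE 0.11, adjusted p = 4.15e-07). The PYHIN genes are near-identical in parts and the Ifi204 count was whole in 1 of 12 libraries only, so that its level and fold change are uncertain by reads shared with its paralogs.

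**Figure D2:**
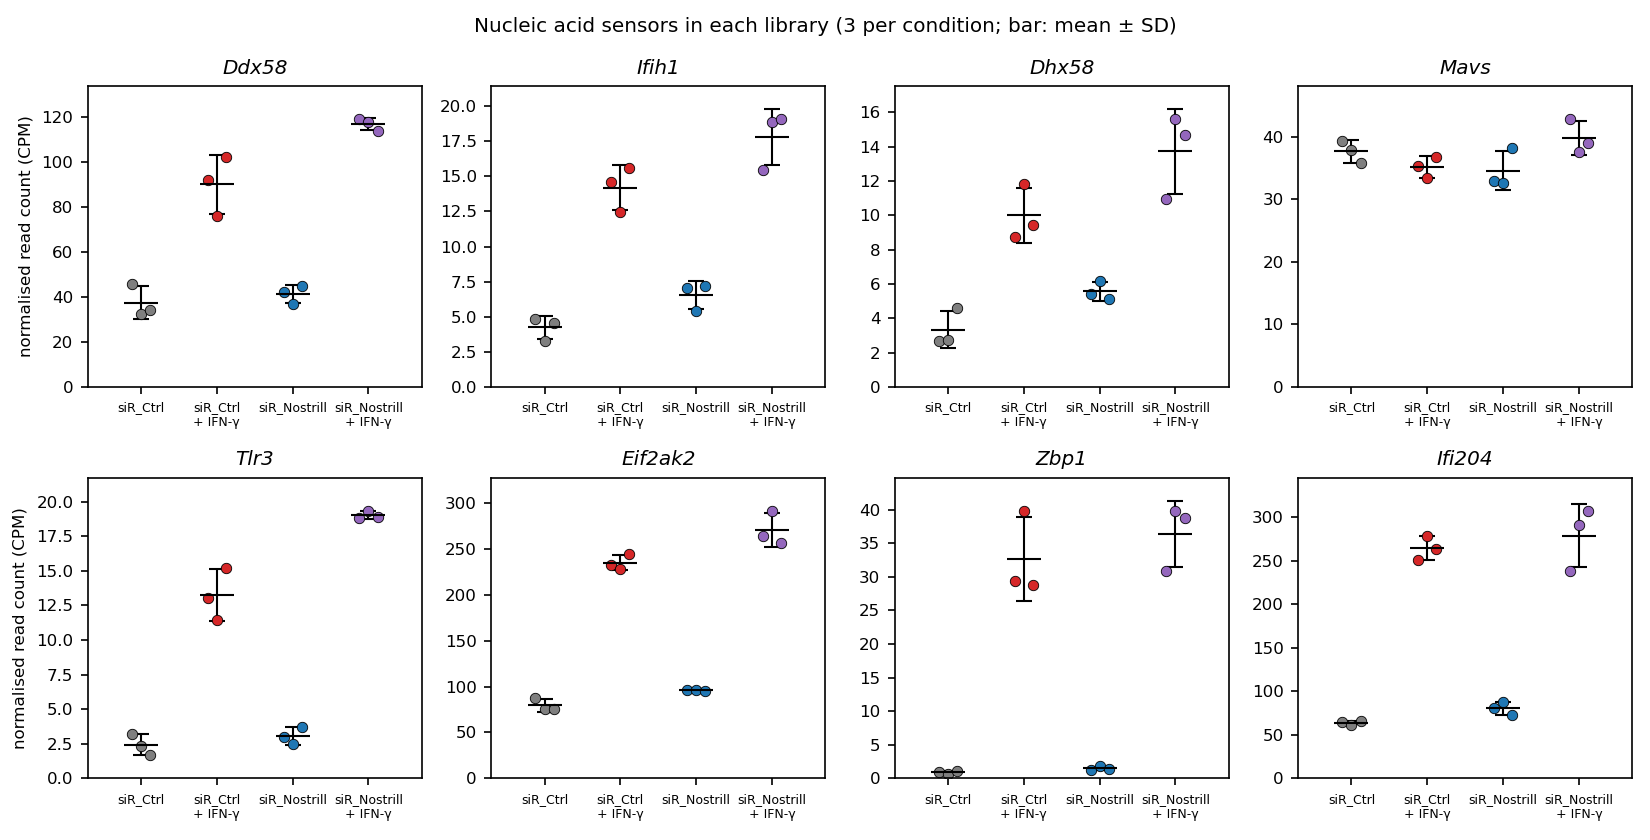
Normalised read count (CPM) of each sensor in each library, with axes from 0, 3 points per condition and bars for the mean ± SD. In 7 panels the points with IFN-γ lie above those without, from 0.671 to 1.78 CPM against 28.8 CPM or more for Zbp1. The points of Mavs with and without IFN-γ overlap for each siRNA. Of 11900 genes tested, 1139 in siR_Ctrl and 2198 in siR_Nostrill cells had every IFN-γ library above every library without it.

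**Figure D3:**
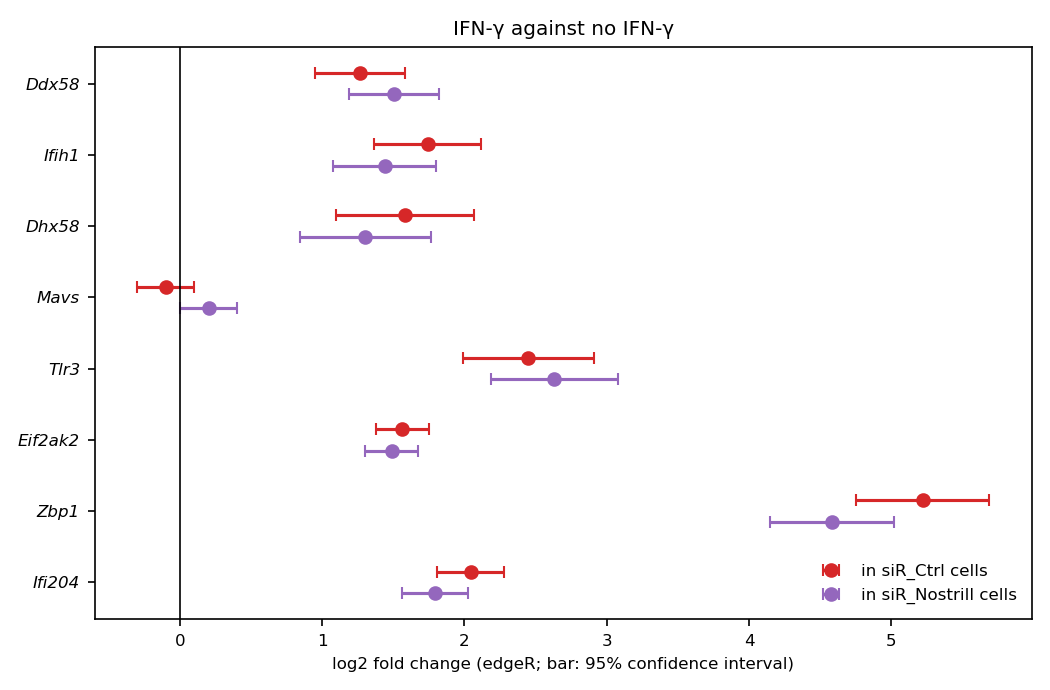
Log2 fold change with IFN-γ for each sensor (horizontal axis, with 95% confidence interval) in siR_Ctrl and siR_Nostrill cells. Zbp1 stands at 5.22 and 4.59, Mavs at -0.10 and 0.20, and the other 6 lie between 1.27 and 2.63.

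The promoters of 5 sensors were in the RefSeq table of GRCm38.p6, each as 1 window of 250 bases before to 50 bases after an annotated start, and all 5 are shown because 4 of these genes rose together with IFN-γ and Mavs did not. Capitals mark matches on either strand to the ISRE core GAAANNGAA, the pattern of interferon-stimulated response elements. Windows of Dhx58, Zbp1 and Ifi204 were not in the table and were not searched.
Ddx58, chr4:40239776-40240075, minus strand: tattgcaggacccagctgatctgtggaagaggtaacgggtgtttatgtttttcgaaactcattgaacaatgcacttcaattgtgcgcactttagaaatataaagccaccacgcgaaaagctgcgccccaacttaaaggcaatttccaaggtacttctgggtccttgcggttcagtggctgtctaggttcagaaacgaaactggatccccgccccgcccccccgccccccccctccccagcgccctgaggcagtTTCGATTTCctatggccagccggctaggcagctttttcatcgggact
Ifih1, chr2:62646206-62646505, minus strand: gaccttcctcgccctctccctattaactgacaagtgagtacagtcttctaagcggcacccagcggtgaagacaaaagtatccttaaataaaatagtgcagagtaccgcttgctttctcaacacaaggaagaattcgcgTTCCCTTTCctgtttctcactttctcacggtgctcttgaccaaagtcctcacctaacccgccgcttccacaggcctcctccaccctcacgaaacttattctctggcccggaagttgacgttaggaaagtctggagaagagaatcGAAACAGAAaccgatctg
Eif2ak2, chr17:78882523-78882822, minus strand: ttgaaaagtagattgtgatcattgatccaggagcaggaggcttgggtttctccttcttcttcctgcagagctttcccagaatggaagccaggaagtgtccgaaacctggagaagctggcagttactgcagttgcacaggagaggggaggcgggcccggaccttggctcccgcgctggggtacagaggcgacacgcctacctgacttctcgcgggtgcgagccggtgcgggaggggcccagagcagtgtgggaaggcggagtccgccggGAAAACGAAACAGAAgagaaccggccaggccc
Tlr3, chr8:45410331-45410630, minus strand: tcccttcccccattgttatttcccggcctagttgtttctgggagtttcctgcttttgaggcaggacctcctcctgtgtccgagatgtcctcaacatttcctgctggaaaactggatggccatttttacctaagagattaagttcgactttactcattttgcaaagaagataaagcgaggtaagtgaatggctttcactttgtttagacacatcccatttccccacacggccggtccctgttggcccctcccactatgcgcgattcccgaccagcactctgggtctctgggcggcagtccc
Mavs, chr2:131233813-131234112, plus strand: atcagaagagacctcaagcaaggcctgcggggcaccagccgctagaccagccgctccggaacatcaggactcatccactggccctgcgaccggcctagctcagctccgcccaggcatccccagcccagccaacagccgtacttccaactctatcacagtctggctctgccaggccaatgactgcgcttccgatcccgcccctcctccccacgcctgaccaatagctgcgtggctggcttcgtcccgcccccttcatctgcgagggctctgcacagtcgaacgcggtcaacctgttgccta
Ddx58 had 1 ISRE core match and Ifih1 had 2, while Eif2ak2 had 2 overlapping matches near the start. The pattern was not found in the windows of Mavs and Tlr3. Of 32851 windows of the same length, 8.56% held the ISRE core. A match is a description of these letters, not of a bound site, and Tlr3 rose with IFN-γ without one in its window. The Tlr3 window lies inside the gene, which runs to chr8:45411075 on the minus strand. The outermost 5′ end of Tlr3 was thus not searched.

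The second question was whether the sensors differed between siR_Nostrill and siR_Ctrl cells. Both siRNA comparisons use the same libraries as the IFN-γ comparisons above. Without IFN-γ, 0 of the 8 were called, where 0.218% of the genes tested were called in either direction. At an unadjusted p below 0.05 in edgeR 5 of the 8 were higher in siR_Nostrill cells, against 6.19% of the genes tested. DESeq2, which called 1.77% of the genes it fitted, and limma on log2(FPKM + 1) also called 0 of the 8. The same 5 sensors, Ifih1, Dhx58, Eif2ak2, Zbp1 and Ifi204, had every siR_Nostrill library above every siR_Ctrl library in CPM, which held for 8.70% of the genes tested. The median log2 fold change of the 8 was 0.33, against 0.01 over all genes tested.

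Among these 5 without IFN-γ, the log2 fold change from siR_Ctrl to siR_Nostrill was 0.79 for Zbp1 (95% interval 0.22 to 1.37, adjusted p = 0.269). It was 0.74 for Dhx58 (interval 0.24 to 1.24, adjusted p = 0.241) and 0.63 for Ifih1 (interval 0.24 to 1.01, adjusted p = 0.205). Ifi204 followed at 0.33 (interval 0.10 to 0.56, adjusted p = 0.25) and Eif2ak2 at 0.28 (interval 0.09 to 0.46, adjusted p = 0.226). The sensors with the widest differences, Zbp1, Dhx58 and Ifih1, were thus among those with the fewest reads. In FPKM 2 of the 5 overlapped, Zbp1 from 0.93 to 1.48 in siR_Ctrl and from 1.16 to 2.02 in siR_Nostrill cells, and Eif2ak2 from 11.97 to 16.41 and from 15.2 to 16.7. Ifih1, Dhx58 and Ifi204 had every siR_Nostrill library above every siR_Ctrl library in FPKM, against 10.2% of the genes tested, and on both scales, against 6.68%. Tlr3 had a log2 fold change of 0.34, Ddx58 of 0.14 and Mavs of -0.12, and the libraries of each overlapped between the siRNAs. The interval of Tlr3, from -0.16 to 0.84, leaves room for a 1.79-fold difference at this depth.

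With IFN-γ, 0 of the 8 were called, against 0.429% of the genes tested. At an unadjusted p below 0.05 in edgeR 4 of the 8 were higher in siR_Nostrill cells, against 6.87% of the genes tested, and DESeq2, with 3.98% of its genes called, and limma on log2(FPKM + 1) again called 0. These were Tlr3 at a log2 fold change of 0.52 (95% interval 0.13 to 0.92, adjusted p = 0.199), Dhx58 at 0.46 (interval 0.02 to 0.90, adjusted p = 0.323), Ddx58 at 0.38 (interval 0.07 to 0.68, adjusted p = 0.241) and Eif2ak2 at 0.20 (interval 0.02 to 0.38, adjusted p = 0.287). Ddx58, Tlr3, Eif2ak2 and Mavs had every siR_Nostrill library above every siR_Ctrl library in CPM, as had 11.1% of the genes tested. In FPKM this held for Ddx58, Tlr3, Mavs, Ifih1 and Dhx58, but not for Eif2ak2, against 14.6% of the genes tested. It held on both scales for Ddx58, Tlr3 and Mavs, against 9.91%. Ifih1 stood at 0.33, Mavs at 0.18, Zbp1 at 0.16 and Ifi204 at 0.08. The median of the 8 was 0.26, against 0.00 over all genes.

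**Figure D4:**
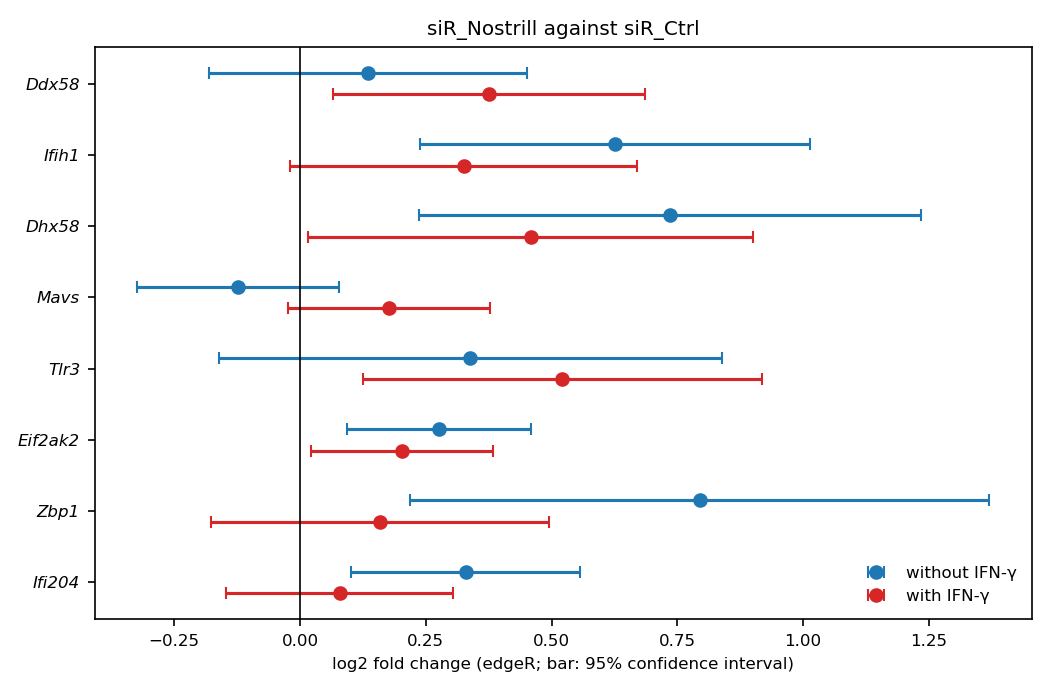
Log2 fold change from siR_Ctrl to siR_Nostrill cells for each sensor (horizontal axis, with 95% confidence interval), without and with IFN-γ. None was called after adjustment, although the unadjusted intervals of 5 sensors without IFN-γ and 4 with it lie above 0.

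The length trend changed these counts. When it was removed from each library in the edgeR fit, 3 sensors were called higher in siR_Nostrill cells without IFN-γ, against 3.39% of the genes called in either direction in that fit, namely Ifih1 (log2 fold change 0.86, adjusted p = 0.00955), Ddx58 (0.33, adjusted p = 0.0128) and Eif2ak2 (0.54, adjusted p = 0.0256). With IFN-γ 2 were, against 13.0% of the genes, Ddx58 (0.33, adjusted p = 0.00534) and Tlr3 (0.48, adjusted p = 0.0202). The genes called in that fit, Eif2ak2, Ifih1, Ddx58 and Tlr3, are the 4 longest of the 8, each longer than at least 73.5% of the genes. Dhx58, Mavs and Ifi204 are of about median length or shorter, and Zbp1, with the shortest transcript, is shorter than all but 7.99% of the genes. Whether the siRNAs differ in the level of the long sensors thus depended on how the length trend was treated.

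The third question was whether IFN-γ acted to a different extent in siR_Nostrill cells. The interaction was called for 0 of the 8, where 0% of the 11900 genes were called by edgeR, and DESeq2 and limma likewise called 0 genes. At an unadjusted p below 0.05 in edgeR 1 of the 8 was found, against 10.7% of the genes. It was Mavs, with an interaction of 0.30 on the log2 scale (95% interval 0.02 to 0.58, adjusted p = 0.43). Zbp1 had the largest difference in size, -0.64 (interval -1.30 to 0.03, adjusted p = 0.43). Ifih1, Dhx58 and Ifi204 were at -0.30, -0.28 and -0.25, Ddx58 and Tlr3 at 0.24 and 0.18 and Eif2ak2 at -0.07, and the intervals of all 6 included 0. The interval of Zbp1 leaves room for a rise that was 0.405 times as large in siR_Nostrill cells.

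The genes that surround the sensors were taken from lists chosen with earlier results of these data known. In RIG-I-like receptor signalling, 16 of 19 genes were tested. With IFN-γ 3 were called higher in siR_Ctrl and 4 in siR_Nostrill cells, against 4.71% and 5.24% of all genes tested. None was called lower. Irf7, the interferon-inducible partner of IRF3, had a log2 fold change of 3.57 (adjusted p = 2.28e-07) in siR_Ctrl and 2.61 in siR_Nostrill cells. Trim25, the ubiquitin ligase of RIG-I, rose by 1.48 and 1.65. Rnf135, another ligase of RIG-I, passed the test in siR_Ctrl cells, at 0.61 (adjusted p = 0.0391), and was at 0.53 in siR_Nostrill cells (adjusted p = 0.0567). Tank and Azi2, adaptors of TBK1, passed it in siR_Nostrill cells, at 0.46 and 0.43, and were at -0.10 (adjusted p = 0.735) and 0.22 (adjusted p = 0.303) in siR_Ctrl cells. The interaction was called for none of these 3, at -0.07 for Rnf135 (adjusted p = 0.843), 0.57 for Tank (adjusted p = 0.43) and 0.22 for Azi2 (adjusted p = 0.434). The kinase genes downstream, Tbk1 and Ikbke, and Irf3 itself were called in neither, at log2 fold changes from -0.31 to 0.25. The count in siR_Nostrill cells was 2 without replicate 2 or replicate 3 of siR_Nostrill with IFN-γ. It reached 5 in 1 other fit that left out a library, and was from 4 to 7 in the other settings. Called lower there was 1 gene in 2 of the 12 fits that left out a library, and up to 2 in the other settings. Rnf135 was tested with 68 to 146 reads per library, and the count in siR_Ctrl cells was 2 in 11 of the 12 fits that left out a library.

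The endosomal list had 12 of 19 genes tested, with Myd88 called in both, by 1.38 (adjusted p = 3.35e-07) and 1.26. Sidt2, an endosomal RNA transporter, was called in siR_Nostrill cells at 0.33 (adjusted p = 0.0278) and stood at 0.03 in siR_Ctrl cells (adjusted p = 0.902), with an interaction of 0.31 that was not called (adjusted p = 0.43). Its call was lost in 7 of the 12 fits that left out a library, namely without any 1 replicate of siR_Nostrill with or without IFN-γ or without replicate 1 of siR_Ctrl with IFN-γ (adjusted p up to 0.159), and in the limma fits. The list's median log2 fold change was 0.01 and 0.07. Ticam1, which encodes the TLR3 adaptor TRIF, was at -0.07 and 0.15 and was not called. Unc93b1, the chaperone that carries endosomal receptors, was listed at 0.31 FPKM or less and not tested. Tlr7, which reads GU-rich single-stranded RNA, had a mean from 0.223 to 0.293 FPKM in the 4 conditions, and Tlr8 and Tlr9 were not analysed here. Tlr3 thus rose while the mRNA of its adaptor did not pass the test. Among 11 genes of the eIF2α kinases and the stress arm below PKR, 2 were called higher in siR_Ctrl cells, Atf3 at 1.70 and Trib3 at 1.16, and 1 in siR_Nostrill cells, Atf3 at 1.37, with medians of -0.06 and 0.07. Trib3 stood at 0.56 in siR_Nostrill cells (adjusted p = 0.089), and its interaction of -0.60 was not called (adjusted p = 0.43). Over all genes tested 4.71% and 5.24% were called higher, so that 1 called gene among 11 or 12 is near the background. The other eIF2α kinases, Eif2ak1, Eif2ak3 and Eif2ak4, were not called, at -0.18 to 0.10, nor were Atf4, Ddit3 and Ppp1r15a.

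Of 17 other genes that handle double-stranded RNA, 6 were called higher with IFN-γ in siR_Ctrl and 7 in siR_Nostrill cells. The shares over all genes tested were 4.71% and 5.24%. The oligoadenylate synthetases Oas2 (4.51 and 3.60), Oas1a (3.16 and 2.13) and Oas3 (2.85 and 2.07) rose from means of 0.0567, 0.193 and 0.0833 FPKM in siR_Ctrl cells. They had at most 124, 67 and 74 reads in a library. Deposited values were whole in 12 of 12 libraries for Oas2, but in 1 for Oas1a and 3 for Oas3. The values of Oas1a and Oas3 are thus uncertain by divided reads. Adar, which edits double-stranded RNA and limits MDA5 and PKR activation, rose by 1.12 and 1.33. Dicer1, Ago2, Tarbp2 and Prkra, which act in RNA interference or bind PKR, were not called in either. The counts of called genes fell to 2 and 3 with a minimum mean of 5 CPM, which left 12 of the 17 genes in the test, and to 3 and 5 with limma on log2(FPKM + 1). The count in siR_Ctrl cells was 4 without replicate 2 or 3 of siR_Ctrl or without replicate 1 of siR_Ctrl with IFN-γ.

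Below ZBP1, 5 of 6 genes were tested and 2 were called higher in each, against 4.71% and 5.24% of all genes tested. They were Mlkl, the executioner of necroptosis, at 1.29 and 1.11 (adjusted p = 5.5e-07 and 2.07e-06) and Ripk1 at 0.96 and 0.96. Ripk3, the kinase that ZBP1 recruits, was listed at 0.22 FPKM or less in each library and was not tested. Mlkl reached 92.5 ± 0.46 FPKM (SD, n = 3) with IFN-γ in siR_Ctrl cells, and Zbp1 36.3 ± 5.78 FPKM. In the DNA sensing list 14 of 25 genes were tested. With IFN-γ 8 of the list were called higher in siR_Ctrl and 9 in siR_Nostrill cells, against 4.71% and 5.24% of all genes. The PYHIN relatives of Ifi204 led it, Ifi205 at 5.88 and 6.65, Mndal at 4.07 and 3.55, Ifi203 at 3.38 and 3.50 and Ifi207 at 2.25 and 3.02, with deposited counts that were whole in 0 to 3 of 12 libraries, so that these values are uncertain by divided reads as well. Tmem173, which encodes STING, rose by 1.10 and 1.17. Cgas, which makes the STING ligand, was called in siR_Nostrill cells at 0.67 (adjusted p = 0.0185) and stood at 0.12 in siR_Ctrl cells (adjusted p = 0.762), and its interaction of 0.55 was not called (adjusted p = 0.43).

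**Figure D5:**
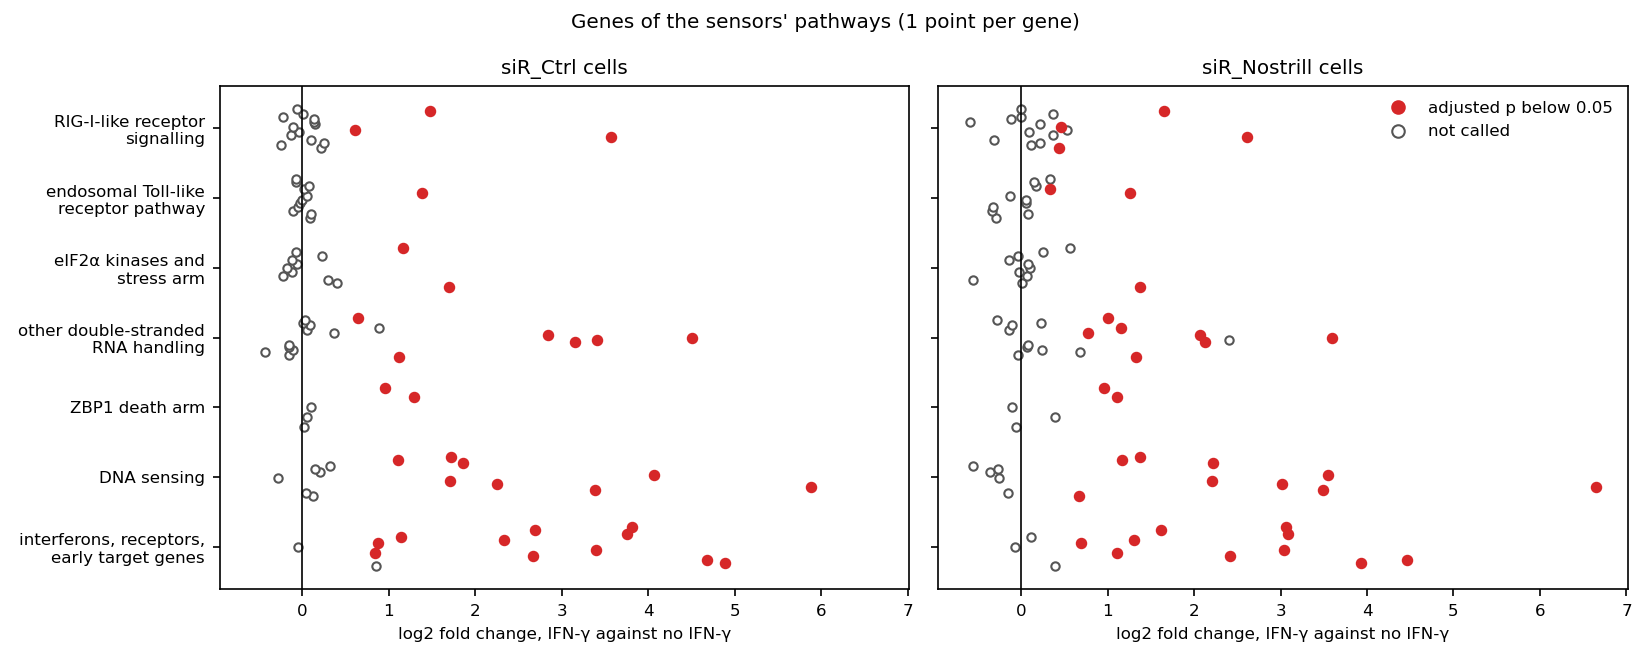
Log2 fold change with IFN-γ of each tested gene in 7 lists around the sensors (1 point per gene, rows are lists), in siR_Ctrl (left) and siR_Nostrill cells (right), with filled points for an adjusted p below 0.05. Filled points lie to the right of 0 in each list, and most genes of the first 3 lists are open points near 0.

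The interferons that the sensors can switch on were barely found. Ifnb1 had at most 1 read in a library, with means of 0.00 FPKM in both siR_Ctrl conditions and 0.0667 in both siR_Nostrill conditions, and was not tested. Of 35 interferon, receptor and early target genes 13 were tested. With IFN-γ 11 of the list were called higher in siR_Ctrl and 10 in siR_Nostrill cells, against 4.71% and 5.24% of all genes. This is also the list in which the siRNAs differed at rest, with 3 of 13 called higher in siR_Nostrill cells, against 0.218% of the genes called in either direction, and a median log2 fold change of 1.07 against 0.01. They were Oasl1 at 1.25 (adjusted p = 0.0472), Oasl2 at 1.10 (adjusted p = 0.0189) and Ifit1, which binds foreign RNA, at 1.03 (adjusted p = 0.0384). That count ranged from 0 to 4 over the fits that left out 1 library and was 0 in 5 of those 12, namely without replicate 1 of siR_Ctrl, without any 1 replicate of siR_Nostrill or without replicate 2 of siR_Nostrill with IFN-γ. The deposited reads of Ifit1 were whole in 7 of 12 libraries, so that its value is uncertain by divided reads as well. Isg15, and Irf7 of the RIG-I-like list, were at 1.21 and 1.19 without being called (adjusted p = 0.151 and 0.0508). With IFN-γ 0 of the 13 were called between the siRNAs by edgeR, with a median log2 fold change of 0.32, while DESeq2 called 3, against 3.98% of all genes it fitted, and the fit without the length trend 5, against 13.0%. No interferon gene was among those tested, and the other settings gave from 0 to 7 called at rest. Of 75 tested genes in the other 6 lists, 0 were called between the siRNAs in either state by edgeR with all libraries and no correction for length. Other settings called some of them. Without IFN-γ, Irf7 was called higher in siR_Nostrill cells with DESeq2, with its size factors in edgeR, with a minimum mean of 5 CPM, in both filtered limma fits, without the length trend and without replicate 2 of siR_Ctrl with IFN-γ. The fit without the length trend called 5 genes at rest, Irf7, Adar and Ifi203 higher and Ctsl and Samhd1 lower, against 3.39% of the genes. With IFN-γ it called 14, of which 6 were higher and 8 lower, against 13.0%, and the DNA sensing list held 5 of the higher genes and 1 of the lower, Rnaseh2c. DESeq2 called 3 of the 87 listed genes at rest and 7 with IFN-γ, against 1.77% and 3.98%, and limma on log2(FPKM + 1) called Ifi205 with IFN-γ.

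Across the 12 libraries the level of each sensor was set beside every other gene with an average log2 CPM above 1, by Pearson's r of log2 CPM. This is a description, in which the points share the 4 conditions and the length trend. Ddx58 was most like Adar (r = 0.996) and Il13ra1 (0.995), Tlr3 most like Il13ra1 (0.992) and Txnip (0.992), and Eif2ak2 most like Ifi203 (0.995) and LOC102641031 (0.995). Ifih1 was nearest to Oasl2 (0.987) and Gsap (0.986), and Dhx58 to Ifit1 (0.979) and Trex1 (0.977). Zbp1 was nearest to Gbp3 (0.997) and to another member, Ifi204 (0.997), and Ifi204 to Mndal (0.998) and LOC100044068 (0.998). Mavs went with Mllt1 (0.977) and Ndst2 (0.927), none of them an ISG of the lists above.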

How the data were processed

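RNA of 12 IEC4.1 cultures (4 conditions of 3 libraries, described as biological triplicates in the study's methods) was analysed. The labels do not name separate cultures, so p-values measure the spread between these libraries. Per the study's methods, oligo(dT)-enriched RNA was sequenced on a DNBSEQ platform, cleaned by SOAPnuke and mapped with HISAT2 and Bowtie2 to the GRCm38.p6 genome. The counting tool is not given in the sources used. For each gene and library the authors deposited an estimated count, and from 90.6% to 91.6% of these were whole numbers. The authors also deposited FPKM, which allows for the length of the transcript and the depth, and TPM, which was not used for any result. Reads on genes numbered 17824306 to 19093204 per library.

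Counts were rounded and tested with edgeR 4.0.16 in R 4.3.3 (TMM, filterByExpr, quasi-likelihood test, 1 fit over the 12 libraries, Benjamini-Hochberg adjustment over 11900 genes, threshold 0.05). The study used DESeq2. CPM was computed with TMM factors. The members and gene lists were chosen with earlier results of these data known. Named were all 8 members, some of the called genes of each list, and the 2 nearest genes per member. Called genes of the lists were named by size of change or for their role, and some with larger changes were left out. Genes named for their role, called or not, and the epithelial markers singled out, were chosen after their values were seen. Gene length came from the ratio of count to FPKM for genes with at least 20 reads. Same-numbered libraries deviated together in some cases and apart in others (correlations from -0.495 to 0.725), so the numbers were not taken as pairs. Differently numbered libraries were not set beside them. The chi-square of replicates of one condition, divided by its degrees of freedom, was 6.59 to 99.2, above sampling noise, so each library counted as 1 replicate. Alternatives were DESeq2 1.42.0, its size factors in edgeR, no low-count filter, a filter at a mean of 5 CPM, a fit of only the groups compared, a replicate block, limma 3.58.1 on FPKM in log2 with a pseudocount of 1 or 0.1 (mean FPKM 0.5 or more, or every gene), the length trend removed per library (lowess, span 0.3, as offsets), and each library left out. The test was checked on counts simulated with a fixed spread, no length trend and changes in siR_Ctrl with IFN-γ only. That check does not cover the length trend of these libraries.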

Additional observations from a re-analysis of the deposited data

How the results depend on the processing

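The 7 calls with IFN-γ in siR_Ctrl and in siR_Nostrill cells kept their direction and their side of the threshold in each of the other settings and with each library left out, so that the count stayed from 7 to 7 of the 8 in both. With the replicate block the counts were 7, 7, 0, 0 and 0 for IFN-γ in siR_Ctrl cells, IFN-γ in siR_Nostrill cells, siR_Nostrill against siR_Ctrl without and with IFN-γ, and the interaction, and the block changed no call of a member. Removal of the length trend gave 3 called sensors without IFN-γ and 2 with it between the siRNAs, where the main fit had 0. Over the fits that left out 1 library, those counts stayed from 0 to 0. Differences near 0 turned sign without any call. Between the siRNAs with IFN-γ, Ifi204 ranged from -0.0008, without replicate 3 of siR_Nostrill with IFN-γ, to 0.1799. In the interaction Tlr3 ranged from -0.0796, without replicate 1 of siR_Ctrl, to 0.3857. Ddx58 was at -0.0058 with the length trend removed, and Eif2ak2 at 0.0613 with limma on log2(FPKM + 1), both with the filter and for every gene, and at 0.0541 on log2(FPKM + 0.1). The cause of these turns was not tested. The interaction needs all 4 conditions, and could not be fitted on only the groups compared. Removal of the trend also raised the genes called between the siRNAs from 26 to 404 of 11900 without IFN-γ and from 51 to 1543 with it, and DESeq2 called 265 and 596. For IFN-γ it raised them from 649 to 1325 in siR_Ctrl and from 807 to 2248 in siR_Nostrill cells. Depth limits Zbp1, Tlr3, Dhx58 and Ifih1 at rest, where a library held from 12 to 139 reads.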
